A study of Homo sapiens with 8 samples.

Results

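The 10 genes described here encode proteins that store iron, buffer or export metal, and defend cells against oxidants: FTH1, FTL, HMOX1, SLC30A1, MT2A, MT1X, TXNRD1, GCLM, SRXN1 and SQSTM1. They were chosen by name, as targets of the transcription factor NRF2 or of metal-responsive regulation, and all 10 were found among the 26902 entries of the deposited expression table. The cells were U2OS, an established human osteosarcoma line, with either QKI7 overexpression (QKI encodes an RNA-binding protein, and QKI7 is 1 of its isoforms) or an empty vector. Cells of both kinds had received 0.5 mM sodium arsenite (NaAsO2) for 1 h, so no comparison here bears on arsenite itself. Input RNA and ribosome footprints, the gel-cut RNA of 17 to 34 nt that ribosomes had shielded, were read over 51 nt, giving 4 groups of 2 libraries: QKI7 input, vector input, QKI7 footprint and vector footprint. Nothing in the labels ties the 2 libraries of a group to different cultures, and the p-values then reflect library spread alone, possibly technical.

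Arsenite binds protein thiols and raises oxidants. NRF2 is normally bound by KEAP1 and degraded; when KEAP1 cysteines are modified, NRF2 accumulates and activates genes of glutathione, thioredoxin and heme metabolism through antioxidant response elements. Metallothioneins and the zinc exporter SLC30A1 are activated by the zinc sensor MTF1 through metal response elements. Ferritin is set mainly at translation: an iron-responsive element near the cap of the ferritin mRNAs is held by iron regulatory proteins when iron is scarce, which blocks initiation, and is released when iron is plentiful.

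The regulatory sequences that give the group its name are shown first, from RefSeq (GRCh38.p14), whose promoter table held 11 start sites for 8 of the 10 genes and none for FTH1 or HMOX1. The FTL site is shown because it is the element that ferritin translation is known for: the 30 bases at chr19:48965329-48965358, plus strand, inside the transcript, hold the CAGTGN loop of the iron-responsive element in capitals. The upstream windows of both metallothionein genes and SLC30A1, 250 bases before the start site, are shown with the core of the metal response element, TGCNCNC on either strand, in capitals.
FTL: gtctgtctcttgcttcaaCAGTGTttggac
MT2A: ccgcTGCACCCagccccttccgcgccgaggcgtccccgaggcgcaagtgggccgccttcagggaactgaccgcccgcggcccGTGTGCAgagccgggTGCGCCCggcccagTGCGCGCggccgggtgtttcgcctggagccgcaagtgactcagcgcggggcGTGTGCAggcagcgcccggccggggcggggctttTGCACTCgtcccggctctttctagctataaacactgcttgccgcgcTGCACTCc
MT1X: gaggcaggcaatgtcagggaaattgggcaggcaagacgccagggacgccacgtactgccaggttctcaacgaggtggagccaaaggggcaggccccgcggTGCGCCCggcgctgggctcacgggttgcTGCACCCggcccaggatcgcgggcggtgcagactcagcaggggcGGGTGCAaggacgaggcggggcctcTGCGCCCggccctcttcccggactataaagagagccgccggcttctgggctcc
SLC30A1: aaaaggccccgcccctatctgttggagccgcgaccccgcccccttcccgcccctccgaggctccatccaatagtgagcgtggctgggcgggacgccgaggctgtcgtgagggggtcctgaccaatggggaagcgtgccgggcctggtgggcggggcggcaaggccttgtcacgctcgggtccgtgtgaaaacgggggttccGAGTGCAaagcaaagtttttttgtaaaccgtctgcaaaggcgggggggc

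The MT2A window is chr16:56608334-56608583 on the plus strand, and the MT1X window is chr16:56682220-56682469 on the plus strand. SLC30A1 lies on the minus strand, at chr1:211579162-211579411. MT2A held 7 matches to TGCNCNC and MT1X held 4, while SLC30A1 held 1. Of all 35116 promoter windows in the table, 49.1% held at least 1 match, 1.77% held at least 4 and 0.0854% held at least 7. The core of the antioxidant response element, TGACNNNGC on either strand, was found upstream of MT2A, MT1X, SLC30A1, GCLM and both start sites of TXNRD1, against 10.9% of all windows, and was absent from the windows of FTL, SRXN1 and SQSTM1. The FTL loop with its unpaired cytosine, searched in the 50 bases after the start, in the sense of the transcript, as C, any 5 bases and then CAGTGN, occurred in 1.67% of windows and in no other window of these genes. These are matches of letters and not shown binding sites.

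The deposited unit is TPM, a transcript share corrected for transcript length, which keeps no read depth, and the depth is therefore unknown. Protein-coding mRNA made up 4.51% and 4.23% of the TPM in the QKI7 inputs and 3.72% and 3.99% in the vector inputs. It made up 0.611% and 0.617% in the QKI7 footprints and 0.627% and 0.63% in the vector footprints. The rest included ribosomal, small non-coding and spike-in RNA, and also histone genes and entries without a RefSeq match. Levels are therefore given as mRNA-scaled TPM: the deposited TPM multiplied so that the 9556 protein-coding entries tested (mean of at least 0.5 deposited TPM over the 4 inputs) sum to 1000000 in each library. All 10 genes passed this filter, GCLM just inside it with a mean input of 0.502 TPM. The entries tested held 0.52% and 0.527% of the deposited TPM in QKI7 footprints, but 0.594% and 0.597% in vector footprints. Compared with scaling on all protein-coding mRNA, this raises QKI7 footprint values relative to vector ones. QKI itself, the overexpressed gene, stood at 39890 and 38440 mRNA-scaled TPM in the QKI7 inputs, against 83.2 and 88.6 in the vector inputs. Of 11 mesenchymal and osteosarcoma markers, 5 passed the same filter in inputs (VIM, SPARC, COL1A1, COL5A2 and THY1). The whole list summed to 119 to 128 deposited TPM in QKI7 cells and 134 to 137 in vector cells. Most of this was VIM, at 82.96 and 74.63 in QKI7 inputs and 98.61 and 102.27 in vector inputs. The osteoblast markers SP7 and IBSP and the collagen gene COL1A2 were under 0.1 TPM on average, and RUNX2 had at most 0.72 TPM. ALPL and BGLAP also missed the filter. Markers of epithelial, blood, endothelial and neural cells summed to at most 0.67 TPM per list in any input.

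**Figure D1:**
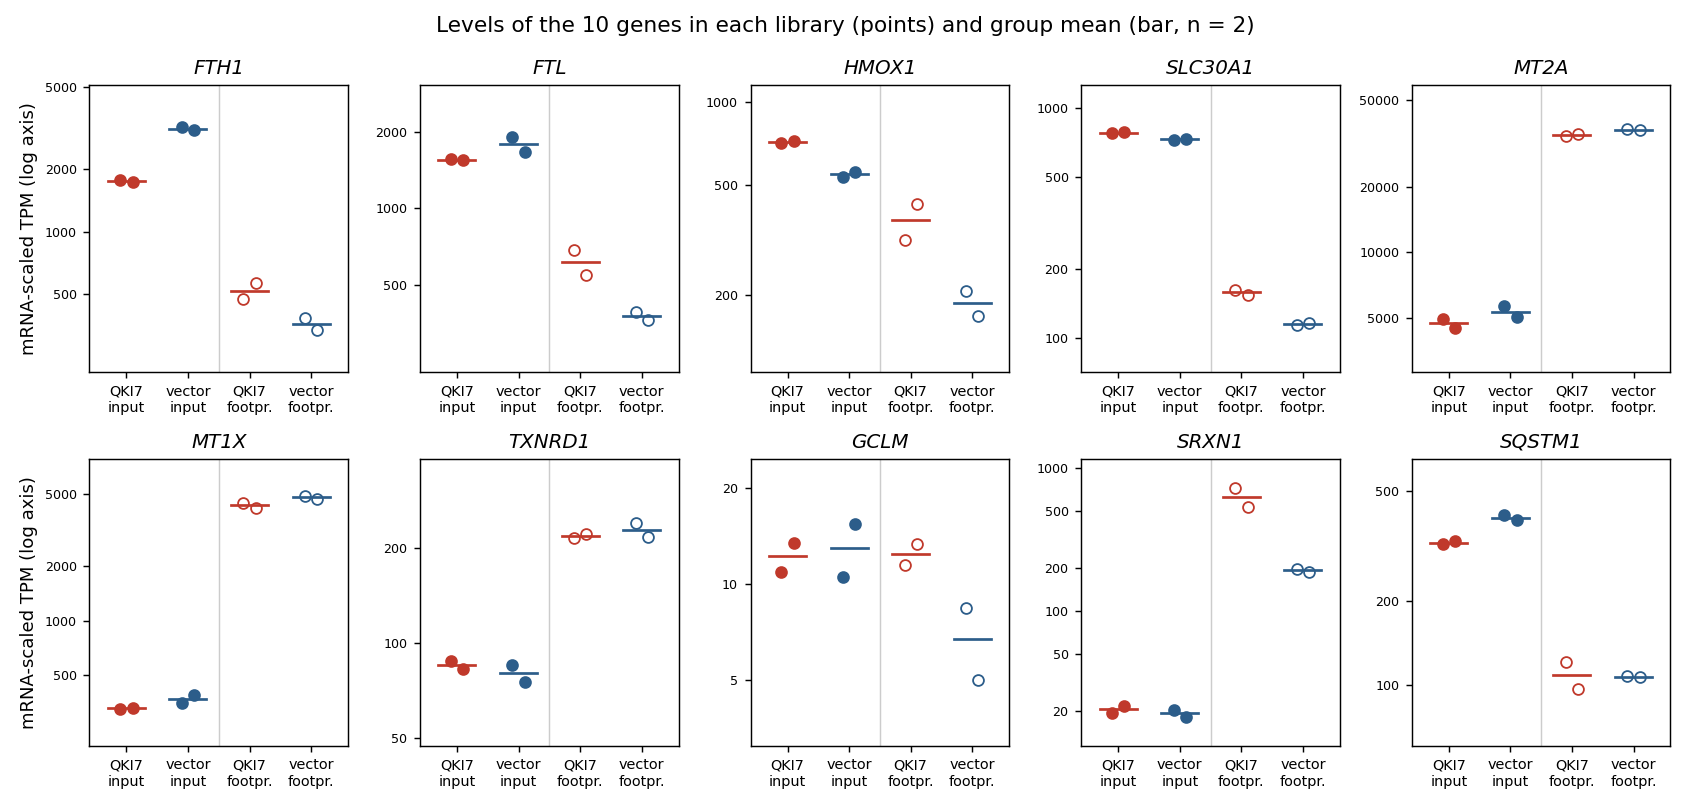
Level of each gene in every library in mRNA-scaled TPM (log axis, a scale of its own per panel); points are the 2 libraries of a group, bars the group mean, filled points inputs and open points footprints. FTH1 input stands at 1774 and 1731 in QKI7 cells, below 3209 and 3095 in vector cells, while its footprints stand higher in QKI7 cells; SRXN1 footprints lie at 721 and 527 in QKI7 cells, against 197 and 186 in vector cells.

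The comparison of inputs asks whether QKI7 changed the RNA level of these genes. FTH1 (Entrez gene 2495, chromosome 11, 61964285 to 61967634), the ferritin heavy chain that oxidises iron for storage, had 1774 and 1731 mRNA-scaled TPM in QKI7 inputs, against 3209 and 3095 in vector inputs. Both QKI7 libraries lay below both vector libraries, at 0.556 of the vector mean. Here and below, such a separation of 2 against 2 libraries carries little weight alone, since its exact two-sided permutation p is 0.333. The share of all entries that separate in this way was not counted. FTH1 mRNA fell by 0.85 on the log2 scale (SE 0.0982, limma adjusted p = 0.00881), a change lower than that of all but 0.534% of the entries tested. It was the only one of the 10 genes to pass the adjusted threshold of 0.05 in inputs, where 1.19% of all entries were called, 1.13% lower and 0.0628% higher. Without any 1 of the 4 input libraries the change was -0.87 to -0.82 but was no longer called, with adjusted p from 0.103 (without QKI7 input replicate 1) through 0.107 (without QKI7 input replicate 2) and 0.109 (without vector input replicate 2) to 0.138 (without vector input replicate 1). The call was also lost with quantile normalization (-0.56, adjusted p = 0.0787) and without the variance trend (adjusted p = 0.253).

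FTL (Entrez gene 2512, chromosome 19, 48965309 to 48966879), the light chain that helps to form the iron core, had 1558 and 1544 mRNA-scaled TPM in QKI7 inputs, against 1908 and 1670 in vector inputs. Its groups did not overlap, but the difference of -0.20 (95% interval -0.48 to 0.07) did not pass (adjusted p = 0.839). A transcribed copy of the heavy chain gene, FTH1P3, could share reads with FTH1 in the authors' counting. It had 4.37 and 4.41 deposited TPM in QKI7 inputs, against 3.45 and 3.40 in vector inputs, or 5.62% and 6.2% of the FTH1 value in QKI7 inputs and 2.97% and 2.82% in vector inputs. Added together, the pair had 82.1 and 75.6 deposited TPM in QKI7 inputs and 119.6 and 123.8 in vector inputs, so the groups stayed apart with the copy included. In RefSeq FTH1 also overlaps BEST1, which had at most 0.11 deposited TPM in any library, and the non-coding LOC399900; the counting's strand setting is not given in these sources, so reads of overlapping genes cannot be told apart.

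HMOX1 (Entrez gene 3162, chromosome 22, 35381096 to 35394207), the heme oxygenase that frees iron from heme, had 709 and 720 mRNA-scaled TPM in QKI7 inputs, against 534 and 559 in vector inputs. The QKI7 libraries were both higher, by 0.39 on the log2 scale (95% interval 0.03 to 0.74), and the difference did not pass (adjusted p = 0.55). It did pass when the 4 input libraries were fitted alone (adjusted p = 0.00176) and on the deposited scale, log2(TPM + 1) (0.54, adjusted p = 0.00728).

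The remaining 7 genes also did not pass in inputs. TXNRD1 overlaps EID3 in RefSeq, which had up to 3.74 deposited TPM in a library, beside up to 3.85 for TXNRD1. SQSTM1 overlaps MGAT4B, with up to 3.8 deposited TPM, and MRNIP, for which no value was found under that symbol. Reads shared with these genes cannot be told apart either. SQSTM1 (chromosome 5, 179806393 to 179838078), the autophagy receptor p62 that also binds KEAP1, had 322 and 329 mRNA-scaled TPM in QKI7 inputs and 408 and 394 in vector inputs. Its difference of -0.30 (95% interval -0.57 to -0.03) had an adjusted p = 0.507, or 0.00567 with the input libraries alone. MT2A had 4928 and 4500 mRNA-scaled TPM in QKI7 inputs and 5632 and 5028 in vector inputs, without overlap. SLC30A1 had 776 and 787 in QKI7 inputs and 729 and 731 in vector inputs, also without overlap but in the other direction. TXNRD1 had 87.8 and 82.7 in QKI7 inputs and 85.1 and 75.3 in vector inputs, and GCLM had 10.9 and 13.4 in QKI7 inputs and 10.5 and 15.4 in vector inputs, so both overlapped. SLC30A1, MT2A, MT1X, TXNRD1, GCLM and SRXN1 differed by -0.18 to 0.10 (adjusted p from 0.422 to 0.999). On the deposited scale SLC30A1 (0.27, adjusted p = 0.017) and TXNRD1 (0.21, adjusted p = 0.0377) were called higher, where 2269 of 5806 entries were called higher. The 10 genes had a median difference of -0.12 in inputs, beside 0.07 over all entries tested.

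The footprint comparison asks whether ribosomes covered these mRNAs more or less with QKI7. The fit gave each gene the same spread, and so the same SE, in inputs and footprints. Over all entries tested, replicates correlated less in footprints (Pearson r 0.933 for QKI7 and 0.944 for vector) than in inputs (0.989 and 0.988). Footprint p-values of this fit therefore borrow from the tighter inputs, and input p-values from the looser footprints. Of the 10 genes, 5 were called higher and 0 lower, where 21.6% of all entries were called, 17.6% higher and 3.99% lower. Ferritin was among them. FTH1 footprints stood at 471 and 565 mRNA-scaled TPM in QKI7 cells, against 382 and 334 in vector cells, and rose by 0.53 (SE 0.0982, adjusted p = 0.0126). FTL footprints stood at 690 and 546 in QKI7 cells, against 394 and 365 in vector cells, and rose by 0.69 (SE 0.116, adjusted p = 0.00929). For both chains the 2 QKI7 footprint libraries lay above the 2 vector libraries.

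HMOX1 footprints were at 317 and 427 mRNA-scaled TPM in QKI7 cells, against 207 and 168 in vector cells, which is 1.99 times the vector mean. They rose by 0.97 (SE 0.151, adjusted p = 0.00753). SLC30A1 (Entrez gene 7779, chromosome 1, 211571568 to 211579161), the zinc exporter of the plasma membrane, had footprints at 162 and 154 in QKI7 cells, against 114 and 116 in vector cells. It rose by 0.45 (SE 0.0647, adjusted p = 0.00612).

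SRXN1 (Entrez gene 140809, chromosome 20, 646615 to 653200), the sulfiredoxin that restores overoxidised peroxiredoxins, had the largest footprint difference of the 10 genes. Its footprints were at 721 and 527 mRNA-scaled TPM in QKI7 cells, against 197 and 186 in vector cells, while its inputs held 19.4 and 21.7 in QKI7 cells and 20.2 and 18.2 in vector cells. The footprint rise was 1.68 (SE 0.167, adjusted p = 0.00182), above that of 97.8% of the entries tested, with overlapping inputs. As deposited, SRXN1 had 3.75 and 2.78 TPM in QKI7 footprints and 1.17 and 1.11 TPM in vector footprints, more than the 0.85 and 0.89 TPM of its QKI7 inputs and the 0.73 and 0.71 TPM of its vector inputs. Only 2.65% of tested entries (253) had more footprint than input TPM as deposited; among the 10 genes these were SRXN1 and MT1X. SRXN1 overlaps a non-coding gene, LOC107985423, in RefSeq, and reads from that gene cannot be told apart from its own.

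GCLM (chromosome 1, 93885199 to 93909430), the modifier subunit of the enzyme that begins glutathione synthesis, had deposited footprints of 0.06 and 0.07 TPM in QKI7 cells and 0.05 and 0.03 TPM in vector cells, near the 0.01 TPM step of the table. Its difference of 0.75 (95% interval 0.04 to 1.46) did not pass (adjusted p = 0.119). TXNRD1 (chromosome 12, 104215779 to 104350307), the selenoprotein that reduces thioredoxin, had 215 and 222 mRNA-scaled TPM in QKI7 footprints and 241 and 218 in vector footprints, overlapping ranges (-0.07, adjusted p = 0.697). SQSTM1 footprints also overlapped, at 121 and 96.8 in QKI7 cells and 108 and 107 in vector cells (0.01, adjusted p = 0.965).

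Metallothioneins are small, cysteine-rich proteins that bind zinc, copper and other thiol-seeking metals. MT2A (Entrez gene 4502, chromosome 16, 56608584 to 56609497) had footprints at 33983 and 34788 mRNA-scaled TPM in QKI7 cells, against 36614 and 36416 in vector cells. MT1X (Entrez gene 4501, chromosome 16, 56682470 to 56684196) had 4475 and 4185 in QKI7 footprints, against 4879 and 4697 in vector footprints. Both QKI7 libraries were below both vector libraries in each gene, but the differences of -0.09 and -0.15 did not pass (adjusted p = 0.34 and 0.14).

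The footprint values depend on the scale, because the median entry was itself 0.25 higher in QKI7 footprints. Relative to that median, SRXN1 stood at 1.43, HMOX1 at 0.72, GCLM at 0.50, FTL at 0.44, FTH1 at 0.28 and SLC30A1 at 0.20, and SQSTM1, TXNRD1, MT2A and MT1X at -0.24, -0.32, -0.34 and -0.40. With median-of-ratios scaling, which sets that shift to about 0, SRXN1 (1.36) and HMOX1 (0.66) were still called higher, FTL (0.37, adjusted p = 0.0722), FTH1 (0.21, adjusted p = 0.174) and SLC30A1 (0.13, adjusted p = 0.192) were not, and MT2A, MT1X and TXNRD1 were called lower (-0.41, -0.47 and -0.39; adjusted p = 0.00624, 0.00665 and 0.0432). On the deposited scale FTH1 (0.24, adjusted p = 0.225), FTL (0.37, adjusted p = 0.0652) and SLC30A1 (0.12, adjusted p = 0.484) also lost their calls. With no filter FTH1 lost its call (0.38, adjusted p = 0.0771) and MT1X was called lower (-0.30, adjusted p = 0.0413). FTL (0.54), HMOX1 (0.82), SLC30A1 (0.30) and SRXN1 (1.53) kept their calls there, with smaller values. Without the variance trend FTH1 (adjusted p = 0.058) and SLC30A1 (adjusted p = 0.0508) lost their calls. Fitted on the 4 footprint libraries alone, none of the 10 passed (adjusted p from 0.111 for SRXN1), in a fit that called 1 of 9556 entries.

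**Figure D2:**
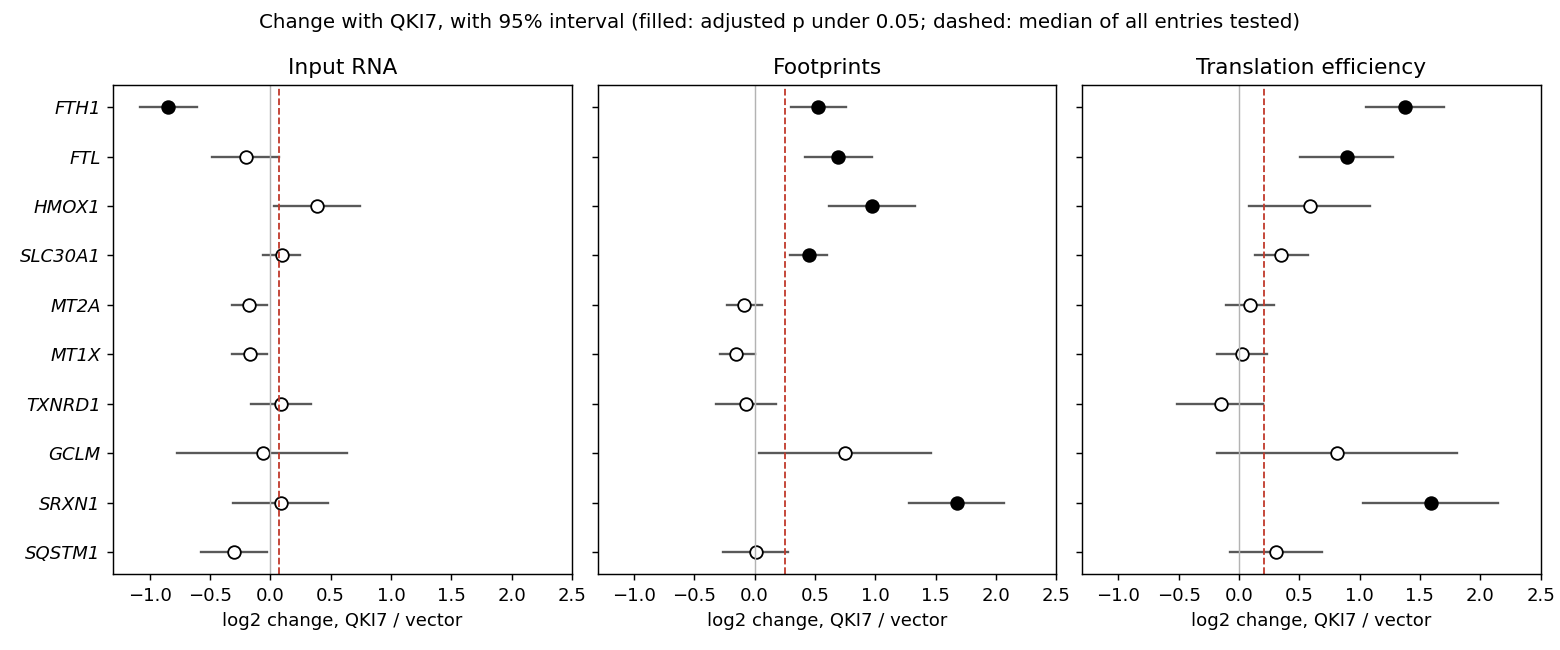
Log2 change of each gene, QKI7 over vector, in input RNA, footprints and translation efficiency, with its 95% interval; filled points passed an adjusted p of 0.05 and the dashed line is the median of all entries tested. FTH1 lies left of 0 in inputs (-0.85) and right of it in footprints (0.53); SRXN1 lies near 0 in inputs (0.09) and at 1.68 in footprints.

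Translation efficiency, the QKI7 change in footprints minus the QKI7 change in inputs, was tested as an interaction in the same fit. It rose for FTH1, FTL and SRXN1, 3 of 10 genes, where 4.61% of all entries were called, 4.24% higher and 0.377% lower, and where the median entry was at 0.21. FTH1 rose by 1.38 (SE 0.139, 95% interval 1.05 to 1.70, adjusted p = 0.00554), above 95.5% of entries, with fewer transcripts and more footprints. FTL rose by 0.90 (SE 0.164, adjusted p = 0.0329) and SRXN1 by 1.59 (SE 0.236, adjusted p = 0.0167).

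Of these, FTH1 and SRXN1 also passed on the deposited scale (0.91 and 0.87) and with median-of-ratios scaling (1.11 and 1.33), and FTL did not (0.40 and 0.63; adjusted p = 0.0722 and 0.105). FTL also missed the threshold with quantile normalization (adjusted p = 0.0502), no filter (0.112) and no variance trend (0.106), and SRXN1 with no filter (1.44, adjusted p = 0.053). Leaving out any 1 of the 4 input libraries ended all 3 calls, with values of 1.35 to 1.40 for FTH1 (adjusted p from 0.0553 to 0.0638), 0.80 to 0.99 for FTL (0.114 to 0.18) and 1.52 to 1.66 for SRXN1 (0.0943 to 0.125); FTL was also lost without vector footprint replicate 2 (0.84, adjusted p = 0.0527).

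The other 7 genes did not pass. HMOX1 differed by 0.59 (95% interval 0.08 to 1.09, adjusted p = 0.167), SLC30A1 by 0.35 (0.13 to 0.57, adjusted p = 0.0829), GCLM by 0.81 (-0.18 to 1.81) and SQSTM1 by 0.31 (-0.07 to 0.69). MT2A, MT1X and TXNRD1 stood at 0.09, 0.03 and -0.15, with intervals of -0.11 to 0.29, -0.18 to 0.23 and -0.51 to 0.20. Of these, TXNRD1 was called lower on the deposited scale (-0.35, adjusted p = 0.0347), SLC30A1 higher at a mean input of at least 2 TPM (0.36, adjusted p = 0.0429), and SLC30A1 and SQSTM1 higher without QKI7 footprint replicate 2 (0.39 and 0.47, adjusted p = 0.0466 and 0.047).

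**Figure D3:**
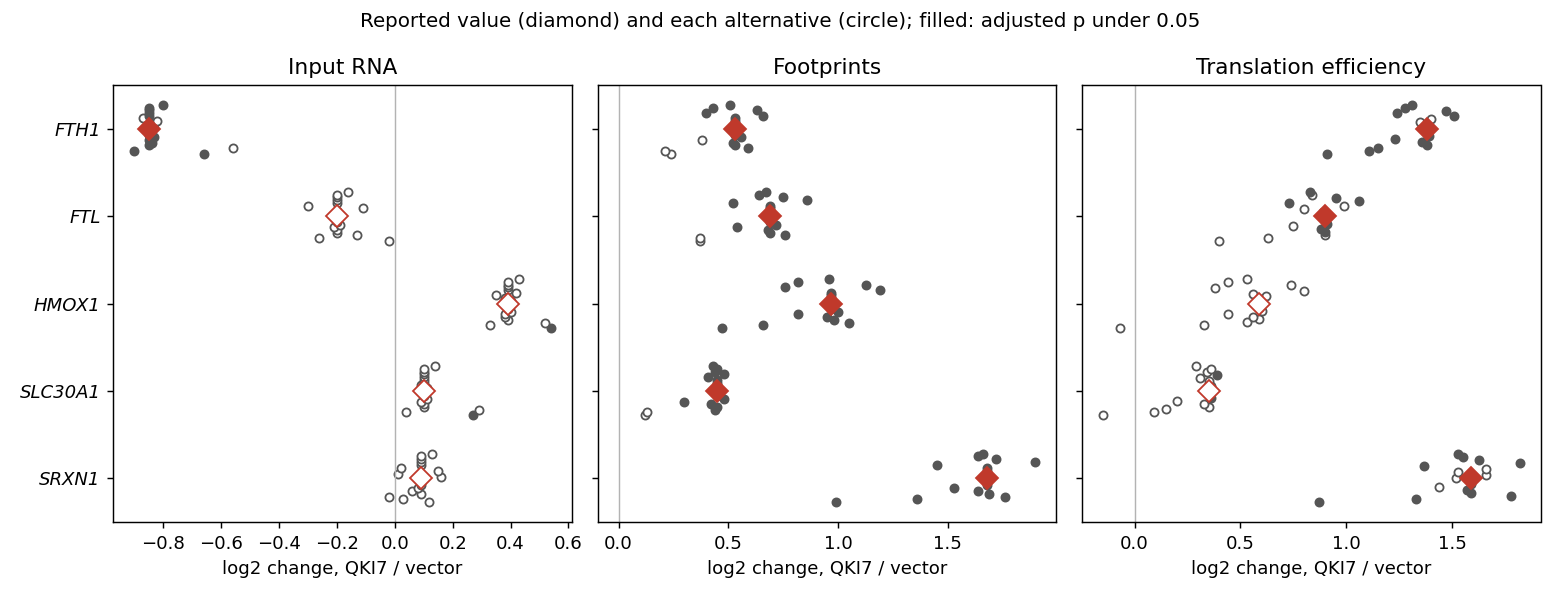
Log2 change, QKI7 over vector, of 5 genes as reported (diamonds) and under each alternative processing (circles), in inputs, footprints and translation efficiency; filled symbols passed an adjusted p of 0.05. FTH1 lies below 0 in inputs (-0.90 to -0.56) and above 0 in translation efficiency (0.91 to 1.51) in every alternative shown, while HMOX1 translation efficiency spans -0.07 to 0.80.

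The same table also sets footprint levels against input levels within each construct. On the mRNA scale 9 of the 10 genes were called the same way in both constructs: MT2A, MT1X, SRXN1 and TXNRD1 had more footprint than input, and FTH1, FTL, HMOX1, SLC30A1 and SQSTM1 had less. GCLM lay between them in QKI7 cells (0.03, adjusted p = 0.937). In QKI7 cells 79.9% of all entries were called, 13.4% higher in footprints and 66.5% lower, and in vector cells 83.3% were called, 13.4% higher and 69.9% lower. The median entry stood at -1.43 in QKI7 cells and -1.67 in vector cells. With median-of-ratios scaling the calls of SQSTM1 (-0.26, adjusted p = 0.0894) and HMOX1 (0.36, adjusted p = 0.0769) in QKI7 cells and of HMOX1 in vector cells (0.03, adjusted p = 0.861) were lost, as was that of FTL in QKI7 cells. On the deposited scale MT2A was not called (-0.15 in QKI7 cells, adjusted p = 0.186, and 0.12 in vector cells, adjusted p = 0.275). TPM divides footprints by the whole transcript rather than by its coding part, so these ratios also carry the share of each transcript that is untranslated.

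MT2A had the highest footprint level of all 9556 entries (rank 1) and rank 5 in inputs. It held 3.40% and 3.48% of all mRNA-scaled TPM in QKI7 footprints and 3.66% and 3.64% in vector footprints, against 0.493% and 0.45% in QKI7 inputs and 0.563% and 0.503% in vector inputs. Footprint over input was 7.29 for MT2A and 13.2 for MT1X in QKI7 cells, and 6.85 and 12.9 in vector cells. A close relative outside the 10 genes, MT1E, had 58.7 and 59.3 deposited TPM in QKI7 footprints and 73.4 and 70.7 in vector footprints. The other metallothionein genes with entries had at most 0.53 TPM in any library, and short footprints can be shared within the family, so the split between MT2A, MT1X and MT1E is uncertain.

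SRXN1 ranked 8156 of 9556 by input and 334 by footprint, with footprint over input at 30.4 in QKI7 cells and 9.97 in vector cells. TXNRD1 ranked 2933 and 603, at 2.56 in QKI7 cells and 2.86 in vector cells. On the deposited scale the TXNRD1 call turned from higher to lower in both constructs. It stood at -1.11 in QKI7 cells (limma adjusted p = 2.58e-07) and -0.76 in vector cells (limma adjusted p = 4.17e-06). On that scale all mRNA is set against ribosomal and other RNA.

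Ferritin mRNA was abundant in inputs, and its coverage was nearer to that of the median mRNA in QKI7 cells than in vector cells. FTH1 ranked 22 by input and 308 by footprint, and FTL 35 and 278. Footprint over input was 0.296 for FTH1 and 0.399 for FTL in QKI7 cells, and 0.114 and 0.212 in vector cells. In vector cells FTH1 stood 1.46 below the median entry on the log2 scale, with 14.6% of entries lower still, and FTL 0.56 below it, with 35.9% lower. In QKI7 cells FTH1 stood 0.33 below the median and FTL 0.10 above it, with 40.3% and 52.5% of entries lower. With median-of-ratios scaling FTL in QKI7 cells was no longer called lower in footprints than in input (-0.01, adjusted p = 0.923). Among the other genes on the lower side, SLC30A1 stood at 0.202 in QKI7 cells and 0.158 in vector cells, while SQSTM1 was at 0.335 and 0.268, and HMOX1 at 0.521 and 0.343. GCLM footprint over input was at 1.02 in QKI7 cells, with overlapping groups, and at 0.519 in vector cells (adjusted p = 0.0408). That call held in only 6 of 16 alternatives. It was lost, among others, without QKI7 input replicate 1 or 2, vector input replicate 2 (-0.55) or vector footprint replicate 2 (-0.50). With median-of-ratios scaling the value turned to 0.51 and was not called (adjusted p = 0.198).

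**Figure D4:**
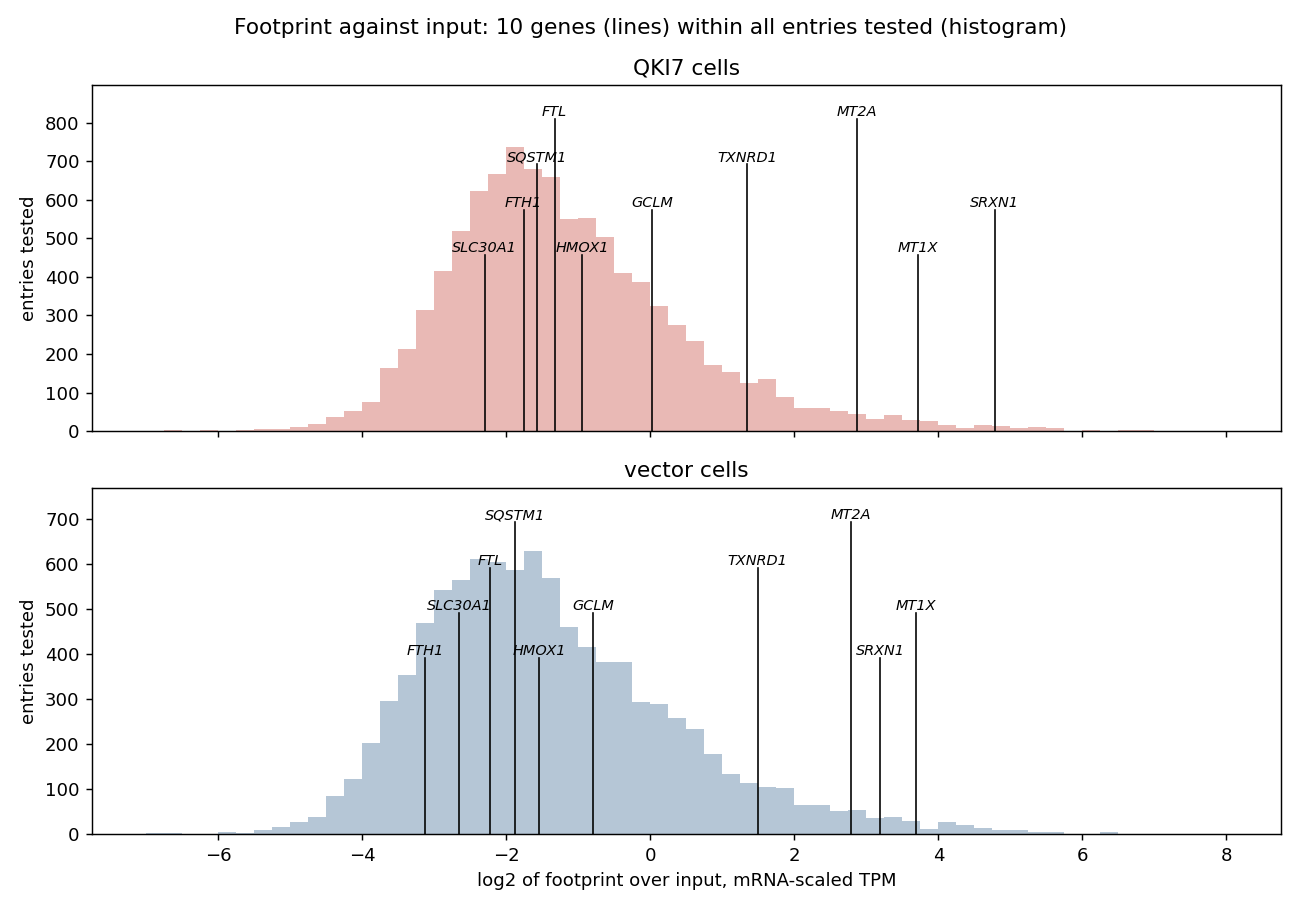
Log2 of footprint over input in mRNA-scaled TPM for the 10 genes (labelled lines; line height only separates the labels) within all 9556 entries tested (histogram, bins of 0.25), QKI7 cells above and vector cells below. FTH1 stands at -1.76 in QKI7 cells, near the median of -1.43, and at -3.13 in vector cells, below the median of -1.67. Farthest right among the 10 genes are SRXN1 (4.78), MT1X (3.72) and MT2A (2.87) in QKI7 cells. In vector cells they are MT1X (3.69), SRXN1 (3.19) and MT2A (2.78).

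The order of levels differed between library types. By mean mRNA-scaled TPM over the 4 inputs it ran MT2A, FTH1, FTL, SLC30A1, HMOX1, SQSTM1, MT1X, TXNRD1, SRXN1, GCLM. Within the QKI7 inputs the neighbours SQSTM1 (322 and 329) and MT1X (327 and 328) were not apart beyond their spread, and in vector inputs SQSTM1 (408 and 394) was above MT1X (352 and 388) by little more. In footprints MT2A and MT1X led, and SRXN1, FTL and FTH1 overlapped in QKI7 cells.

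Other genes of the same pathways were compared between QKI7 and vector in the same fit. They were listed by function, but with earlier results of these data known. In that fit 1.19% of all entries were called in inputs, 21.6% in footprints and 4.61% in translation efficiency. Of 30 further NRF2 targets, 20 were tested: in inputs limma called 0 (2 at an unadjusted p under 0.05, median 0.08, beside 0.07 over all entries), in footprints 2 rose (median -0.04, beside 0.25) and in translation efficiency 1 fell. The 2 that rose were the efflux pumps ABCC1 (0.70, adjusted p = 0.0317) and ABCC2 (0.97, adjusted p = 0.025), both with a mean of at most 0.07 deposited TPM in footprints. The peroxidase PRDX1 fell by 0.53 in translation efficiency (adjusted p = 0.0432). Of 9 regulators of NRF2, 3 rose in footprints: NFE2L2, which encodes NRF2 (0.72, adjusted p = 0.0308), and its small Maf partners MAFG (0.95, adjusted p = 0.0291) and MAFK (0.90, adjusted p = 0.00276). MAFG was weakly covered too, with a mean of 0.0775 deposited TPM in footprints, while NFE2L2 had 0.29 and MAFK 0.5. MAFK also rose in translation efficiency (0.81, adjusted p = 0.0306), and limma called 0 of the 9 in inputs (0 at an unadjusted p under 0.05).

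In the list of 24 iron-handling genes, 18 were tested. TFRC, the transferrin receptor, whose mRNA is stabilised by iron regulatory proteins through elements after its coding part, fell by 0.31 in footprints (adjusted p = 0.0498), with an input difference of 0.00 (adjusted p = 0.999). SLC25A28, a mitochondrial iron importer, rose by 1.5 in footprints (adjusted p = 0.0153), where its mean was only 0.105 deposited TPM. In inputs or in translation efficiency limma called 0 of 18 (1 and 4 at an unadjusted p under 0.05). Of the 10 tested metal response genes, limma called 0 in inputs, footprints or translation efficiency (0, 1 and 1 at an unadjusted p under 0.05). Of 15 tested antioxidant enzymes only SOD2, the mitochondrial superoxide dismutase, was called, in footprints (0.56, adjusted p = 0.0409), and of 8 genes of selective autophagy, 4 receptors and 4 of the ATG8 family that receptors bind, the ATG8-family gene GABARAPL2 fell by 0.53 there (adjusted p = 0.0375). The antioxidant enzymes had a median footprint over input of 1.6 in QKI7 cells and 1.77 in vector cells on the log2 scale, beside -1.43 and -1.67 over all entries.

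The entries whose centred profile over the 8 libraries lay nearest to FTH1 were PTRF, CAPN2 and FAM107B, at Euclidean distances of 0.523, 0.525 and 0.592 in log2 units (Pearson r from 0.991 to 0.994, n = 8 libraries). Their input differences were -0.44, -0.46 and -0.44, smaller than that of FTH1. Nearest to FTL were UNC13D, UBE2Q1 and CSRNP1, at 0.239, 0.262 and 0.283. FTH1 and FTL lay 1.23 apart. All such distances are dominated by the contrast of footprint and input libraries, which the points share.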

How the data were processed

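The authors deposited 1 table of TPM with 2 decimals for 8 libraries; per the submitters' processing notes STAR, RSEM 1.2.31 and GRCh38 were used, and settings, strand and annotation are not given in the sources used here. Of 26902 entries, 23970 matched a RefSeq symbol (GRCh38.p14), 1395 an older symbol and 1537 none. Protein-coding entries (18718) leave out 73 histone genes; those averaging 0.5 TPM or more in the inputs (9556) were rescaled to equal sums and tested as log2(value + 2) with limma 3.58.1 in R 4.3.3 (lmFit, eBayes with a variance trend; 4 group means, 4 residual degrees of freedom), two-sided, with Benjamini-Hochberg adjustment over all 9556 and a threshold of 0.05. Log2 changes are on that scale, which understates the change of low genes. An exact permutation of 2 against 2 libraries cannot go below 0.333. The fit was tested on simulated data, in which each gene had the same spread in all 8 libraries. That test therefore cannot show what unequal spread between inputs and footprints does to the p-values.

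The 10 genes, the gene lists and the tests were chosen with earlier results of these data known. All 10 genes are always named; from each list at most 4 called genes per contrast are named by size. Libraries sharing a replicate number did not deviate together (r from -0.041 to 0.007), so no block was used. Alternatives changed the scale, filter, pseudocount, variance trend, block and libraries used.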

Additional observations from a re-analysis of the deposited data

Results flagged for a closer look

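For 3 genes the effect of QKI7 differed between footprints and inputs by the interaction test. FTH1 differed by 1.38 on the log2 scale (adjusted p = 0.00554), with inputs lower and footprints higher in QKI7 cells, a pattern of opposite direction. Its footprint rise was not called with median-of-ratios scaling (0.21, limma adjusted p = 0.174) or on the deposited scale (0.24, limma adjusted p = 0.225), among others. FTL differed by 0.90 (adjusted p = 0.0329), and SRXN1 by 1.59 (adjusted p = 0.0167), with inputs that overlapped. The SRXN1 value rests on footprints of 721 and 527 mRNA-scaled TPM in QKI7 cells, against 197 and 186 in vector cells. Apart from that, its footprint levels stood above its input levels as deposited, a property of 2.65% of tested entries.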

How the results depend on the processing

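TPM keeps no read depth, and 1 step of 0.01 TPM is 1.68 to 1.92 mRNA-scaled TPM in footprints, so weakly covered genes such as GCLM carry little precision. Over the comparisons of QKI7 with vector, the 10 genes had 548 values under alternatives, of which 468 kept direction and side of the threshold, 39 lost a call, 13 gained one and 28 turned direction with 0 of these called; the causes were not tested. The counts of called entries moved more. In inputs 114 entries were called as reported, 2587 on the deposited scale, 1 without the variance trend, 1802 with the input libraries alone and 32 to 116 with 1 library left out. In footprints 2064 were called as reported, 476 on the deposited scale, 1138 with quantile normalization, 1 with the footprint libraries alone and 937 to 2459 with 1 library left out; median-of-ratios scaling called 854 higher and 1044 lower, against 1683 and 381 as reported. In translation efficiency 441 were called as reported, 1461 on the deposited scale (207 higher and 1254 lower), 262 with median-of-ratios scaling (169 and 93), 245 with quantile normalization, 193 with no filter, 167 without the variance trend and 10 to 1117 with 1 library left out. For footprint against input, 7639 were called in QKI7 cells and 7964 in vector cells, 4146 and 4258 at a mean input of at least 2 TPM, and 6612 to 7939 and 7078 to 8237 with 1 library left out; median-of-ratios scaling called 2772 higher and 2986 lower in QKI7 cells, and 2936 and 3358 in vector cells. An alternative chosen after seeing the data, a mean footprint of at least 0.2 TPM with median-of-ratios scaling (3008 entries), called 202 in inputs, 846 in footprints, and 2336 and 2409 for footprint against input in QKI7 and vector cells.

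With the replicate number as a block, 245 entries were called in translation efficiency; the block ended no call of the 10 genes between QKI7 and vector, and ended that of GCLM for footprint against input in vector cells (-0.79, adjusted p = 0.0604). The labels do not say whether same-numbered libraries share more than a number.

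Direction turned in these values, which also cover footprint against input. There, TXNRD1 on the deposited scale was called in the turned direction, lower in footprints, in both constructs. On the deposited scale, input stood at 0.0015 for MT2A and 0.004 for MT1X, footprints of SQSTM1 at -0.06, translation efficiency at -0.07 (HMOX1), -0.15 (SLC30A1), -0.27 (MT2A) and -0.32 (MT1X), and footprint against input at -0.15 (MT2A) and -1.11 (TXNRD1) in QKI7 cells and -0.76 (TXNRD1) in vector cells. With median-of-ratios scaling, footprints of SQSTM1 stood at -0.31, translation efficiency at -0.17 (MT2A) and -0.24 (MT1X), and footprint against input at 0.36 (HMOX1) in QKI7 cells and 0.03 (HMOX1) and 0.51 (GCLM) in vector cells. With quantile normalization, input stood at 0.1 (MT2A) and -0.02 (SRXN1), footprints at 0 (MT2A) and -0.04 (SQSTM1), translation efficiency at -0.1 (MT2A) and -0.06 (MT1X), and GCLM footprint against input in QKI7 cells at -0.11. With no filter, footprints of SQSTM1 stood at -0.14, translation efficiency at -0.06 (MT2A) and -0.12 (MT1X), and GCLM footprint against input in QKI7 cells at -0.13. Under the alternative added later, footprints of SQSTM1 stood at -0.01 and MT1X translation efficiency at -0.04. With 1 library left out, GCLM ran from -0.3 to 0.17 in inputs and from -0.1 to 0.15 for footprint against input in QKI7 cells, SQSTM1 footprints from -0.15 to 0.17, TXNRD1 footprints from -0.14 to 0.0047 and MT1X translation efficiency from -0.04 to 0.1; the lone library of a group was then assumed to vary like the others.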
